A study of Mus musculus with 28 samples.

Results

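The levels of 10 genes of the male mouse liver that depend on pulses of growth hormone, acting through the transcription factor STAT5, were followed across 28 mice given phenobarbital or control diet. They were Hsd3b5, Elovl3, Cyp4a12a, Cyp2d9, Nudt7, Serpina3k, Susd4, Bcl6, Socs2 and Igf1. They were chosen as genes under such control, with earlier results of these data known. Counts and medians over them, and over the other lists below, therefore describe these data and are not independent support. Their probes were found by the RefSeq accession that the scanner files give for each probe. The 10 genes were 10 of 20145 named genes on the array, and they had 16 of its 55681 probes. The probe with the highest mean signal stood for each gene, and it was well above background on all 28 arrays for all 10 genes.

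Liver RNA was labelled with 1 dye and hybridised to Agilent mouse arrays, with 1 array per animal, in 3 feeding experiments on male mice. CD-1 mice, an outbred stock with the mouse's own receptors, received phenobarbital at 1500 ppm in the diet or control diet at 0 ppm for 7 days (n = 4 each). hCAR/hPXR mice, which carry the human nuclear receptors CAR and PXR in place of the mouse ones, received 1000 ppm or 0 ppm for 7 days (n = 7 each). C3H/HeNCrlCrlj mice, called C3H below, received 500 ppm or 0 ppm for 27 weeks, and every C3H animal, control animals included, had first been given 1 intraperitoneal injection of 90 mg/kg diethylnitrosamine, a liver carcinogen. The labels call all samples liver, and they give neither the age of the animals nor the hour of sampling, nor whether a C3H sample was tumour or surrounding tissue. The strains differed in dose, time, pretreatment and scan, so that these cannot be told apart from strain.

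Growth hormone reaches the male rodent liver in separate pulses and the female liver almost without pause. Each pulse activates the receptor-bound kinase JAK2, which phosphorylates STAT5, mainly STAT5b. STAT5 then enters the nucleus, switches on male-biased genes and keeps female-biased genes down. The repressor BCL6 also holds down female-biased genes. Phenobarbital acts on the liver through CAR, and classic CAR targets, Cyp2b10 foremost, rise with it.

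All values below are log2 signals relative to the 75th percentile of the array, so 0 is the level of that percentile, and a step of 1 is a factor of 2. A difference is the phenobarbital mean minus the control mean with its standard error. Adjusted p-values come from limma with Benjamini-Hochberg adjustment over all genes tested in the comparison, and a gene was called when its adjusted p was under 0.05. Levels are compared between samples within 1 probe and never between genes. The number of animals limits the precision of these arrays.

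On build GRCm38.p6, RefSeq places the enzyme genes Hsd3b5 (gene ID 15496) at chr3:98618636-98645534, Elovl3 (12686) at chr19:46131897-46135694, Nudt7 (67528) at chr8:114133574-114154731, Cyp4a12a (277753) at chr4:115299046-115332815 and Cyp2d9 (13105) at chr15:82452377-82456827. Serpina3k (20714) lies at chr12:104338486-104345739 and Susd4 (96935) at chr1:182764044-182896596. The regulators Bcl6 (12053) and Socs2 (216233) lie at chr16:23965050-23988866 and chr10:95383903-95417321, and the growth factor gene Igf1 (16000) at chr10:87858265-87937047. Cyp4a12a, Cyp2d9 and Serpina3k belong to families with near-identical copies, so that their probes may also read a relative.

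STAT5 binds the core sequence TTCNNNGAA, which reads the same on both strands. Promoter windows of RefSeq on build GRCm38.p6, each from 250 bases before to 50 bases after a start, were found for 6 of the 10 genes (Hsd3b5, Susd4, Nudt7, Cyp2d9, Bcl6 and Igf1), in 9 windows. The core was present in 8.3% of all 32851 windows of the table and in those of 1 of the 6 genes, Bcl6. The upstream Bcl6 window, chr16:23988803-23989102 on the minus strand, held it once, 118 bases before its start. The other Bcl6 window, chr16:23981234-23981533 on the minus strand, held it 3 times, 168, 122 and 88 bases before its start, and 0.0335% of all windows held it at least 3 times. These windows are shown with the core in capitals, followed by that of Hsd3b5, the gene with the largest fall among the called members, chr3:98645485-98645784 on the minus strand, which held none.
Bcl6, upstream start: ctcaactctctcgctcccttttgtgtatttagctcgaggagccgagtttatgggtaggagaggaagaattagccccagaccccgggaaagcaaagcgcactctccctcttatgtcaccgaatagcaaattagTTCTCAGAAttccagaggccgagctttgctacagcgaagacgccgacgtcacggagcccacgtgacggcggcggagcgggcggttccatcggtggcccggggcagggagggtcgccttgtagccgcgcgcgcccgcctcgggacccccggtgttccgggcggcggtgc
Bcl6, second start: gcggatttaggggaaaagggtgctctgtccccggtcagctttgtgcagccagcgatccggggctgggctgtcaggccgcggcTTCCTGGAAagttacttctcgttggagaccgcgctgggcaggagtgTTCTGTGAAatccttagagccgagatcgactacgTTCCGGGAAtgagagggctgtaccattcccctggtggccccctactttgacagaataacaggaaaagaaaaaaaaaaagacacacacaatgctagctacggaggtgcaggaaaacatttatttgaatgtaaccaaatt
Hsd3b5: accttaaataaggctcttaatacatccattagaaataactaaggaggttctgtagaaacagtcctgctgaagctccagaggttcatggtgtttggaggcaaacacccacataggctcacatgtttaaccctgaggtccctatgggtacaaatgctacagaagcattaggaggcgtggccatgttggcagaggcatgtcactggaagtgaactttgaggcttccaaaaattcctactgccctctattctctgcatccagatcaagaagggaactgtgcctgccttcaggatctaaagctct
A match is a string of letters and not a measured binding site, and the absence of the core says nothing of sites outside these 300 bases.

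The treatment labels were borne out by Cyp2b10, whose lowest phenobarbital value lay above the highest control value in each strain. It was 101-fold higher with phenobarbital in CD-1 mice, 22.4-fold higher in hCAR/hPXR mice and 53.3-fold higher in C3H mice. The mouse receptor probes were lowest in hCAR/hPXR mice, where Nr1i3 was still well above background on every array of 1 or both groups. The control means of Nr1i3, mouse CAR, were -1.02 in hCAR/hPXR and 3.23 in C3H mice, against 1.48 in CD-1 mice, and Nr1i2, mouse PXR, stood at -4.55 in hCAR/hPXR controls, against 0.88 in CD-1 controls. The hepatocyte markers were present on all arrays. Their summed linear signal, in units of the 75th percentile, was 1239 to 1994 with phenobarbital and 1995 to 3634 in controls in CD-1 mice, 3872 to 5427 and 3969 to 4861 in hCAR/hPXR mice, and 5725 to 6642 and 8766 to 9701 in C3H mice. The sums did not overlap between the groups in CD-1 and C3H mice and overlapped in hCAR/hPXR mice, and their part in the results below was not tested. In such bulk samples, fewer cells of a type and less RNA per cell cannot be told apart.

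**Figure D1:**
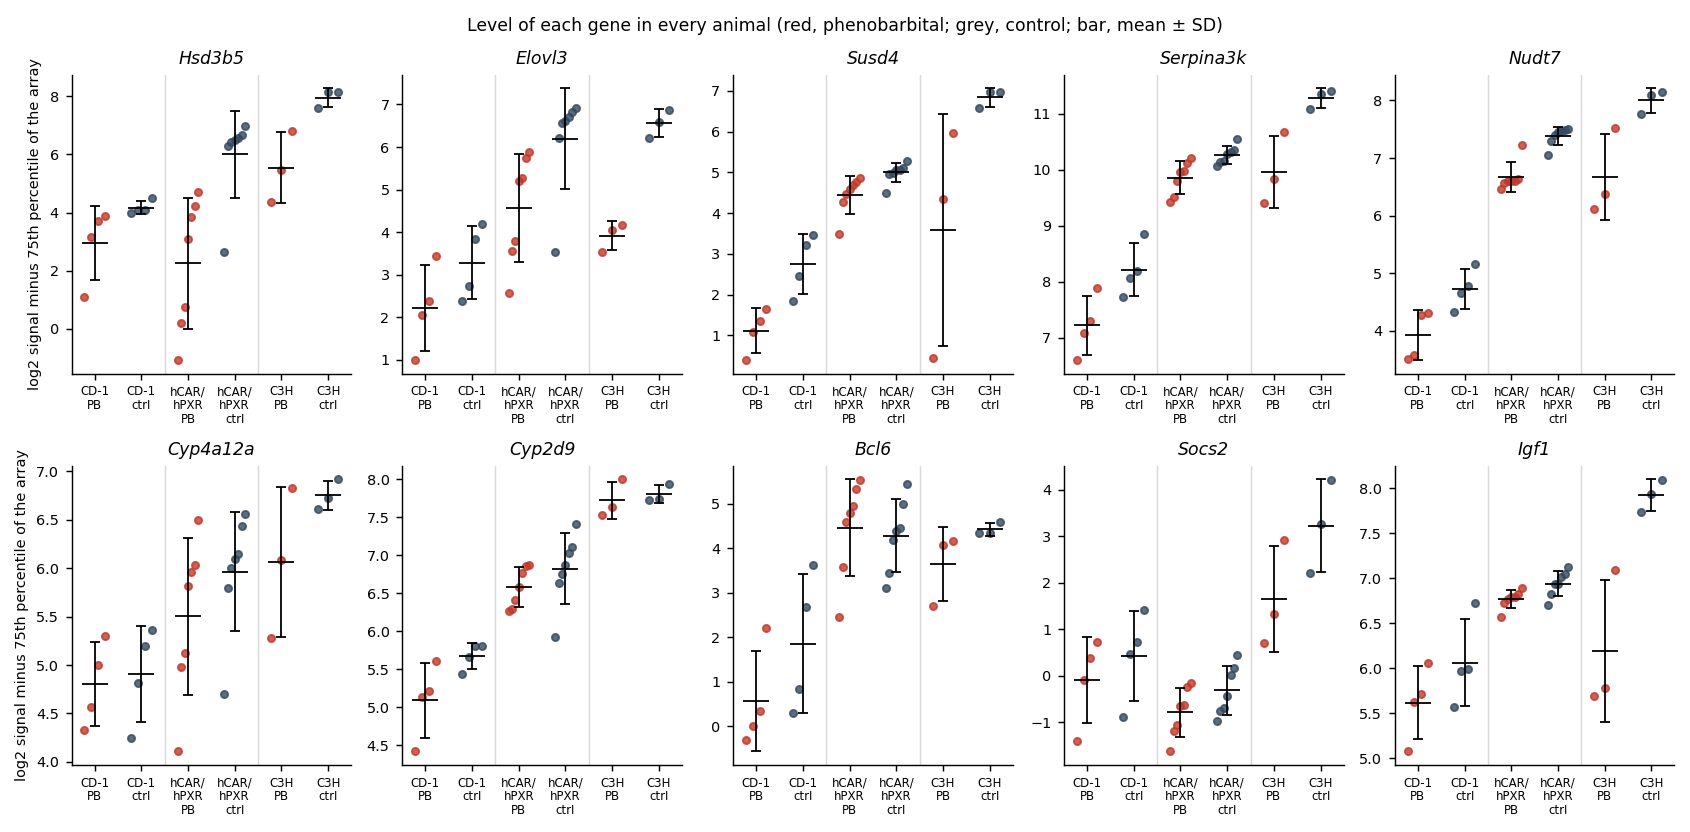
Level of each of the 10 genes in every animal, as log2 signal minus the 75th percentile of the array, in 6 groups, with phenobarbital in red and control in grey; points are animals, bars are means with SD. Hsd3b5 spanned -1.07 to 4.73 in the 7 hCAR/hPXR animals given phenobarbital, and 1 of the 7 controls, at 2.63, stood far below the others.

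In C3H mice after 27 weeks of phenobarbital, all 10 genes had a lower mean than in C3H controls, and 4 fell past the threshold: Hsd3b5, Elovl3, Serpina3k and Igf1. Over the whole array 7.3% of the genes tested were called lower and 14.7% were called in either direction. The median difference was -1.45 over the 10 genes and -0.05 over all 18268 genes tested. The groups did not overlap for 7 of the 10 genes, all lower with phenobarbital, where 24.3% of all tested genes were separated in that direction. All 6 C3H arrays lay on 1 slide.

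Elovl3 extends very long saturated and monounsaturated fatty acids. It stood at 3.54, 4.17 and 4.05 in C3H animals given phenobarbital, against 6.59, 6.22 and 6.88 in C3H controls. Every treated animal was at least 2 units below every control. Elovl3 was 6.24-fold lower with phenobarbital (-2.64 ± 0.24, adjusted p = 0.00256 by limma), and it was the only one of the 10 genes that stayed called whichever of the 6 animals was left out.

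Hsd3b5 is a male-specific keto-reductase of the 3-beta-hydroxysteroid dehydrogenase family. It stood at 6.80, 5.48 and 4.35 in C3H animals given phenobarbital, against 8.13, 7.59 and 8.15 in C3H controls. The treated animals were spread over more than 2 units and all lay below the controls. Hsd3b5 was 5.33-fold lower (-2.41 ± 0.58, adjusted p = 0.0414 by limma).

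Igf1, the hepatic growth factor that growth hormone induces and that circulates to other tissues, stood at 7.09, 5.78 and 5.69 in treated C3H animals, against 7.94, 7.73 and 8.09 in C3H controls. Animal 1 of the treated group was the nearest to the controls. Igf1 was 3.31-fold lower (-1.73 ± 0.38, adjusted p = 0.0334 by limma), and its 3 other probes gave differences between -1.62 and -1.55.

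Serpina3k, a secreted serine protease inhibitor of a gene family with close relatives in the mouse, stood at 10.67, 9.40 and 9.84 in treated C3H animals, against 11.36, 11.09 and 11.41 in C3H controls. The treated animals all lay below the controls. It was 2.49-fold lower (-1.32 ± 0.32, adjusted p = 0.0416 by limma).

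Susd4, a membrane protein with complement-control domains, stood at 5.97, 4.35 and 0.44 in treated C3H animals, against 6.97, 6.58 and 6.97 in C3H controls. The groups did not overlap, but treated animal 3 lay almost 4 units below the next one. The difference of -3.25 ± 1.29 was the most negative of the 10 and did not pass (adjusted p = 0.127 by limma). Nudt7, a peroxisomal hydrolase of coenzyme A, stood at 7.51, 6.37 and 6.12 in treated animals, against 8.09, 7.76 and 8.15 in controls, without overlap. Its difference was -1.33 ± 0.36 (adjusted p = 0.0559 by limma), and its second probe gave -1.26.

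The 2 regulators and the 2 male-biased P450 genes did not pass in C3H mice. Socs2, an inhibitor that STAT5 induces and that damps the receptor, had a mean of 1.66 ± 1.14 with phenobarbital and 3.22 ± 0.997 in controls (SD, n = 3 each), with overlapping animals and a difference of -1.57 ± 0.69. The 2 other Socs2 probes gave -1.63 and -1.59. Bcl6 differed by -0.78 ± 0.39 without overlap, with treated animal 3 at 2.69 and the other treated animals at 4.08 and 4.18, against 4.34 to 4.59 in controls. Cyp4a12a, a fatty acid and arachidonic acid hydroxylase, differed by -0.69 ± 0.37, and Cyp2d9, a male-biased testosterone 16-alpha-hydroxylase, by -0.08 ± 0.16. The groups overlapped for both, and the limits of the 95% interval for Cyp2d9 were -0.47 and 0.31.

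Treated C3H animal 1 had the highest level of the 3 treated animals in 8 of the 10 genes, the exceptions being Elovl3 and Bcl6. Without it 8 of the 10 genes were called lower, while 2924 of 18757 genes were called lower over the array. Without any 1 of the other 5 animals the count was 1, Elovl3. Without a filter on dim probes, with 37196 genes tested, Elovl3 alone of the 10 was called.

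In hCAR/hPXR mice after 7 days, 9 of the 10 genes had a lower mean with phenobarbital and 5 were called lower: Hsd3b5, Elovl3, Susd4, Serpina3k and Nudt7. The called genes made up 58.1% of all genes tested in this strain, 23.2% lower and 34.8% higher, so that 5 of 10 has to be read against a high background. The median difference was -0.47 over the 10 genes and 0.13 over all 19889 genes tested. The groups overlapped for each of the 10 genes, where 8.19% of all tested genes were separated with phenobarbital lower. Of the treated animals, numbers 2 to 7 were on a slide with no control, and only number 1 shared a slide with the controls. With slide as a block, which leaves the comparison resting on treated animal 1, none of the 10 genes was called by limma, while 438 genes were called over the whole array. At an unadjusted p under 0.05, 4 of the 10 were lower in that fit: Serpina3k, Nudt7, Socs2 and Igf1.

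**Figure D2:**
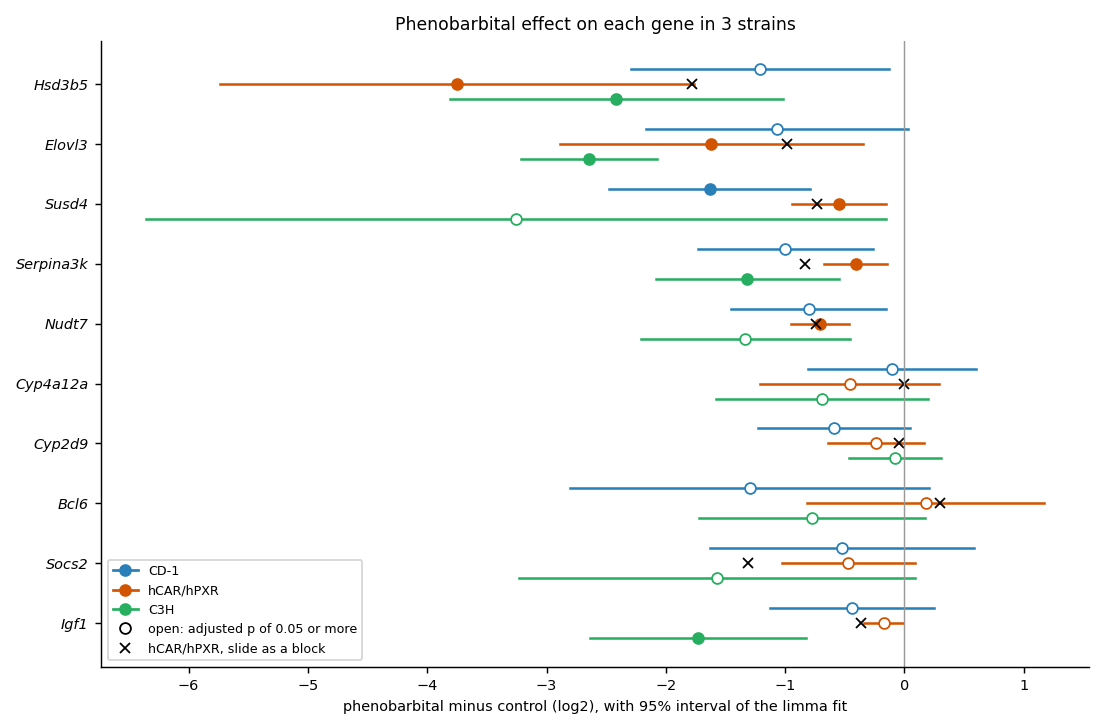
Phenobarbital minus control for each gene in the CD-1, hCAR/hPXR and C3H strains (log2, horizontal axis), with the 95% interval of the limma fit; filled points have an adjusted p under 0.05, and crosses give the hCAR/hPXR value with slide as a block. Of the 30 differences 29 were negative, and the exception was Bcl6 in hCAR/hPXR mice at 0.18.

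Hsd3b5 ranged from -1.07 over a median of 3.08 to 4.73 in the 7 hCAR/hPXR animals given phenobarbital, against 2.63, 6.51 and 6.97 in the 7 hCAR/hPXR controls. Treated animals 2, 7 and 5 were lowest at -1.07, 0.20 and 0.77, and the other 4 treated animals lay between 3.08 and 4.73. Among the controls only animal 1, at 2.63, lay below 6.29, and it alone made the groups overlap. Hsd3b5 was 13.5-fold lower with phenobarbital (-3.75 ± 0.93, adjusted p = 0.00326 by limma). Without control animal 1 the difference was -4.31. With slide as a block it was -1.78 ± 1.84 (adjusted p = 0.702 by limma).

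Elovl3 ranged from 2.58 over a median of 5.21 to 5.88 in treated hCAR/hPXR animals, against 3.54, 6.61 and 6.91 in hCAR/hPXR controls. The lowest treated animals were again numbers 2, 5 and 7, and the lowest control was again number 1. Elovl3 was 3.07-fold lower (-1.62 ± 0.60, adjusted p = 0.0304 by limma). Leaving out 1 of 8 animals (treated animals 2, 5 or 7 or control animals 2, 3, 4, 6 or 7) raised its adjusted p above the threshold, to between 0.0526 and 0.0628 by limma. With slide as a block its difference was -0.98 ± 1.23.

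Nudt7 ranged from 6.46 over a median of 6.60 to 7.23 in treated hCAR/hPXR animals, against 7.06, 7.44 and 7.51 in hCAR/hPXR controls. Of the 7 treated animals, 6 lay between 6.46 and 6.64, below every control, and animal 4 at 7.23 lay apart from them. Nudt7 had the smallest adjusted p of the 10 genes (-0.71 ± 0.11, adjusted p = 0.000151 by limma), and its second probe gave -0.54. With slide as a block its difference was -0.74 ± 0.23 (adjusted p = 0.129 by limma).

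Susd4 ranged from 3.498 over a median of 4.605 to 4.85 in treated hCAR/hPXR animals, against 4.505, 5.05 and 5.29 in hCAR/hPXR controls (-0.55 ± 0.18, adjusted p = 0.0191 by limma). Treated animal 2 and control animal 1 were the lowest of their groups. Serpina3k ranged from 9.43 over a median of 9.96 to 10.21 in treated animals, against 10.07, 10.28 and 10.54 in controls (-0.41 ± 0.12, adjusted p = 0.0113 by limma). Treated animals 1 and 4 were lowest here, not animals 2, 5 and 7. With slide as a block the differences were -0.74 ± 0.38 for Susd4 and -0.84 ± 0.22 for Serpina3k (adjusted p = 0.385 and 0.066 by limma).

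Igf1 did not pass in hCAR/hPXR mice, and its call depends on scaling and probe. It ranged from 6.57 over a median of 6.79 to 6.89 in treated animals, against 6.70, 6.94 and 7.12 in controls, a difference of -0.17 ± 0.08 with a 95% interval from -0.34 to -0.01 (adjusted p = 0.0621 by limma). The other Igf1 probes gave -0.15, -0.42 and -0.52. When the array was adjusted over single probes, the last 2 of these passed the threshold and the probe used here did not, so the probes disagree on whether Igf1 is called lower in this strain. Igf1 was called at -0.45 under quantile normalization, at -0.51 under normexp and at -0.32 with the mean of its probes (adjusted p = 0.00015, 1.46e-05 and 0.00178 by limma).

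The other 4 genes did not pass in hCAR/hPXR mice. Bcl6 averaged 4.46 ± 1.09 with phenobarbital and 4.29 ± 0.82 in controls (SD, n = 7 each), a difference of 0.18 ± 0.47. Socs2 differed by -0.47 ± 0.26, and its other probes gave -0.04 and -0.49. Cyp4a12a differed by -0.46 ± 0.35 and Cyp2d9 by -0.24 ± 0.19. Cyp2d9 was called at -0.51 under quantile normalization, at -0.54 under normexp and at -0.39 without control animal 1 (adjusted p = 0.0435, 0.0315 and 0.0329 by limma). Cyp4a12a had 2 treated animals, numbers 2 and 5, and control animal 1 below 5, and control animal 1 was also the lowest of all 14 animals for Cyp2d9, at 5.93.

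Within the 7 treated hCAR/hPXR animals, Hsd3b5 was set against each of the other 9 genes, and its r passed the adjustment for Elovl3, Cyp4a12a and Cyp2d9. The Pearson r was 0.97 with Elovl3, 0.97 with Cyp4a12a and 0.97 with Cyp2d9 (adjusted p = 0.0167, 0.0125 and 0.0125 by exact permutation over the 18 relations computed, two-sided, n = 7). Spearman's rho was 0.86, 0.93 and 0.89, and no rho passed the adjustment (adjusted p = 0.0857 for each, exact permutation, n = 7). Without animals 2 and 7, the farthest from the median of Hsd3b5, r was 0.94, 0.97 and 0.93 over 5 animals. The Hsd3b5 values leave a gap between 0.77 and 3.08, and neither side of it holds enough animals for a relation of its own to be tested.

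For the other 6 genes r did not pass among treated hCAR/hPXR animals, and whether it differed between genes was not tested. It was -0.20 with Igf1, -0.18 with Socs2, 0.18 with Bcl6 and -0.27 with Serpina3k, and it was 0.60 with Susd4 and 0.54 with Nudt7, none of them past the threshold (adjusted p between 0.235 and 0.705, exact permutation, n = 7). Among the 7 controls, r was 0.99 with Elovl3, 0.94 with Cyp4a12a and 0.92 with Nudt7 (adjusted p = 0.0405 each, exact permutation, n = 7). These rested on control animal 1: without it and animal 3, r was 0.62, 0.61 and 0.54. In this animal Igf1, at 7.12, was the highest of the controls while Hsd3b5 was the lowest. Arrays of 1 group share slide and scan, apart from treated animal 1.

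**Figure D3:**
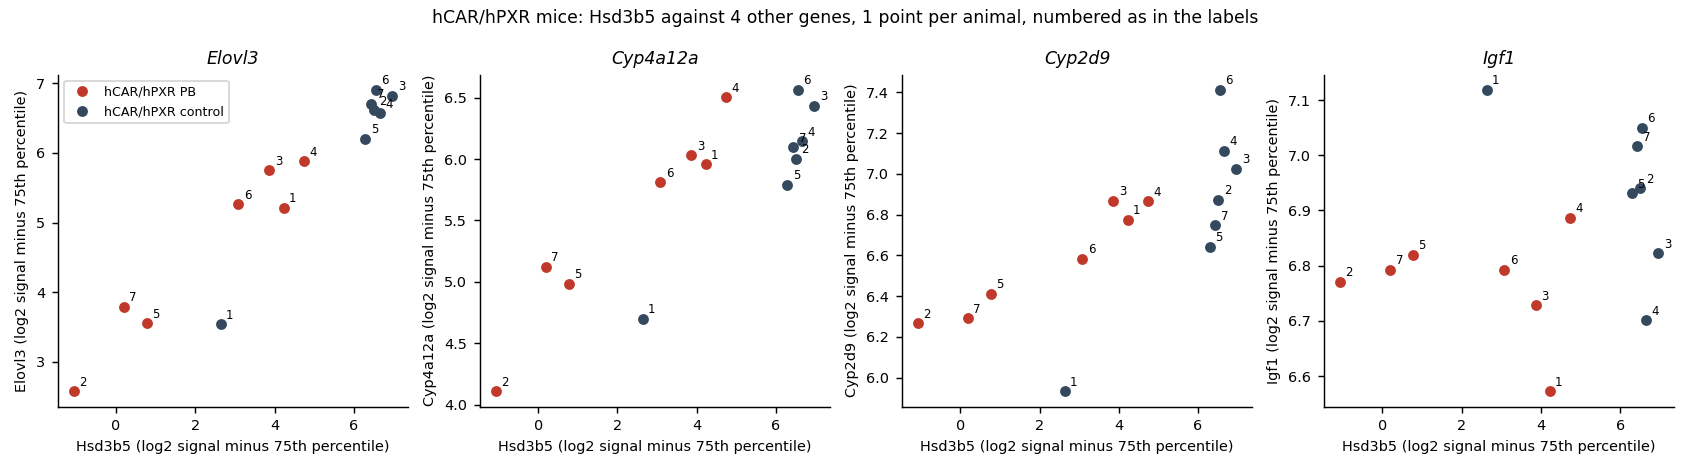
Hsd3b5 (horizontal axis) against Elovl3, Cyp4a12a, Cyp2d9 and Igf1 (vertical axes) in hCAR/hPXR mice, all as log2 signal minus the 75th percentile; each point is an animal with its number, red for phenobarbital and grey for control. Treated animals 2, 5 and 7 and control animal 1 lie at the low end for Elovl3, Cyp4a12a and Cyp2d9, and not for Igf1.

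Outside the 10 genes, the 5 named genes most like Hsd3b5 over the 14 hCAR/hPXR arrays, after each group's mean was removed, were Hsd3b2 (r = 0.99), Car1 (0.96), Alas2 (0.96), Slco1a1 (0.95) and Cyp4a12b (0.95), ranked among 12655 genes as a description with no test. Hsd3b2 and Cyp4a12b are close relatives of 2 of the 10 genes, and reading of their RNA by the same probe was not tested.

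In CD-1 mice after 7 days, all 10 genes had a lower mean with phenobarbital, and 1, Susd4, was called. Over the array 6.17% of genes were called lower and 8.01% in either direction. The median difference was -0.90 over the 10 genes and -0.04 over all 23674 genes tested. The groups did not overlap for 3 of the 10 genes (Hsd3b5, Susd4 and Nudt7), where 12% of all tested genes were separated with phenobarbital lower. The treated animals were on 1 slide and the controls on another, so slide and treatment cannot be told apart in CD-1 mice.

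Susd4 stood at 1.07, 0.39, 1.66 and 1.35 in CD-1 animals given phenobarbital, against 3.47, 2.46, 3.23 and 1.85 in CD-1 controls. The groups did not overlap, though the lowest control lay close to the highest treated animal. Susd4 was lower with phenobarbital (-1.63 ± 0.39, adjusted p = 0.0231 by limma). The call was lost without control animal 3, treated animal 1 or treated animal 2, where the differences were -1.48, -1.62 and -1.39 (adjusted p = 0.0791, 0.0658 and 0.0819 by limma).

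Hsd3b5 stood at 1.09, 3.70, 3.90 and 3.16 in treated CD-1 animals, against 4.51, 4.00, 4.09 and 4.09 in CD-1 controls. Treated animal 1 was 2 units below the next, and the other 3 lay between 3.16 and 3.90, under every control. The difference was -1.21 ± 0.50 (adjusted p = 0.143 by limma), and without treated animal 1 it was -0.59. Nudt7 stood at 3.58, 4.28, 4.31 and 3.52 in treated animals, against 5.16, 4.32, 4.65 and 4.78 in controls, with a difference of -0.80 ± 0.30 (adjusted p = 0.112 by limma). Its second, dimmer probe gave -1.61 and passed over single probes (adjusted p = 0.0477 by limma), so the 2 probes of Nudt7 disagree on the call.

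The other CD-1 differences did not pass. They were -1.06 ± 0.51 for Elovl3, -0.997 ± 0.34 for Serpina3k, -1.30 ± 0.70 for Bcl6, -0.59 ± 0.29 for Cyp2d9, -0.52 ± 0.51 for Socs2, -0.44 ± 0.32 for Igf1 and -0.11 ± 0.32 for Cyp4a12a, with adjusted p between 0.0847 and 0.854 by limma. Cyp4a12a took the opposite sign, 0.10, under quantile normalization. Bcl6 spanned a wide range between CD-1 animals, from -0.31 to 2.21 with phenobarbital and from 0.29 to 3.63 in controls. CD-1 replicates were also the least alike over the whole array, with correlations between 0.907 and 0.967, against 0.973 to 0.988 in hCAR/hPXR mice.

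Whether the phenobarbital effect differed between strains was tested as a difference of differences in 1 fit of all 28 arrays. Igf1 fell more in C3H than in hCAR/hPXR mice (-1.55 ± 0.33, adjusted p = 0.00376 by limma) and more in C3H than in CD-1 mice (-1.29 ± 0.37, adjusted p = 0.0154). The call against CD-1 mice was lost without treated C3H animal 2 or 3 (adjusted p = 0.0587 and 0.0693 by limma). It was also lost with the mean of the Igf1 probes. In CD-1 mice the other Igf1 probes gave -1.18, -0.85 and -0.58, against -0.44 for the probe used. Susd4 fell more in C3H than in hCAR/hPXR mice (-2.70 ± 0.86, adjusted p = 0.0469 by limma), a call that was lost when 1 of 20 of the 28 animals was left out. Leaving out treated C3H animal 3 moved it to -1.13. These were 2 of the 10 genes for C3H minus hCAR/hPXR, where 9.44% of all genes were called and 5.74% in this direction, and 1 of the 10 for C3H minus CD-1, where 18.7% were called and 5.05% in this direction.

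None of the 10 genes differed past the threshold for hCAR/hPXR minus CD-1 by limma, where 40.1% of all genes were called and 10.2% had a called negative difference. At an unadjusted p under 0.05 there were 0 as well, and the smallest unadjusted p, 0.0522, was that of Hsd3b5 (-2.54 ± 1.25, adjusted p = 0.104). Its 95% interval ran from -5.10 to 0.03, which holds 0. Without hCAR/hPXR control animal 1 this difference was -3.101 and was called (adjusted p = 0.0307 by limma). For Elovl3 the 3 differences between strains were -0.55, -1.02 and -1.58 with standard errors of 0.85 to 1.03, and none passed. For Hsd3b5 the difference of C3H minus hCAR/hPXR was 1.34 ± 1.38 and that of C3H minus CD-1 was -1.20 ± 1.52.

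The order of the group means was much the same for most of the 10 genes. C3H controls were highest for 9 of the 10, and the exception was Bcl6, where hCAR/hPXR animals given phenobarbital averaged 4.46, against 4.43 in C3H controls, with overlapping animals. CD-1 animals given phenobarbital were lowest for 8 of the 10, and for Hsd3b5 and Socs2 hCAR/hPXR animals given phenobarbital were lowest. C3H controls stood above all animals of the next group for Hsd3b5, Igf1, Nudt7, Serpina3k and Susd4, and overlapped with the next group for Elovl3, Cyp4a12a, Cyp2d9 and Socs2. Lower in the order most neighbouring groups overlapped.

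Among controls, C3H minus CD-1 was positive and called for all 10 genes, hCAR/hPXR minus CD-1 was positive and called for 8 of 10, and C3H minus hCAR/hPXR for 6 of 10. These counts stand against 50.8%, 50.7% and 29.6% of all genes called in that direction and 88.9%, 88.2% and 48.2% in either, and against median shifts of 0.71, 0.57 and 0.17 over all genes. The median differences of the 10 genes were 2.93, 1.94 and 0.98. Under quantile normalization 4, 4 and 1 of the 10 genes were called in either direction. Of these, Igf1 was called lower in hCAR/hPXR than in CD-1 controls (adjusted p = 0.013 by limma). Over the array 17488 of 21604, 18650 of 22366 and 5226 of 19461 genes were then called. The medians were 1.21, 0.57 and 0.29 over the 10 genes, against 0.37, 0.38 and 0.04 over all genes. The sign turned in this setting for Igf1 and Cyp4a12a (C3H minus CD-1 and hCAR/hPXR minus CD-1), for Cyp2d9 (hCAR/hPXR minus CD-1) and for Bcl6, Elovl3, Nudt7 and Serpina3k (C3H minus hCAR/hPXR). The control levels of the strains therefore depend on how the arrays are scaled.

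For Hsd3b5 the difference of C3H minus CD-1 controls was 3.79 ± 1.09, and it was positive under each scaling. Socs2 stood apart in C3H controls, 3.54 ± 0.50 above hCAR/hPXR controls and 2.79 ± 0.55 above CD-1 controls (adjusted p = 1.94e-06 and 4.2e-05 by limma).

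Of 15 tested genes of growth hormone signalling, feedback inhibitors included, 2 rose in C3H mice and 2 fell. Over the array 7.38% of all genes were called higher and 7.3% lower. Without a filter on dim probes 1 of the 15 was called higher and none lower, and when 1 animal was left out 1 to 2 were called higher and 0 to 3 lower. Socs3, an inhibitor of cytokine signalling that inflammatory cytokines and growth hormone induce, averaged 3.33 with phenobarbital and 0.22 in C3H controls, 8.61-fold higher (adjusted p = 0.00958 by limma). Irs1, an insulin receptor substrate, rose 2.30-fold, while Irs2, its relative, was 1.99-fold lower and Ghr, the growth hormone receptor, was 1.57-fold lower (adjusted p = 0.0285 by limma). Stat5b differed by -0.23 ± 0.17 and did not pass. Cish, a direct STAT5 target and feedback inhibitor, had means of 4.42 and 1.71, a difference of 2.71 ± 1.03 that did not pass (adjusted p = 0.116 by limma), with overlapping animals.

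In hCAR/hPXR mice 6 of 15 signalling genes were called higher and none lower, against 34.8% of all genes called higher. None was called by limma with slide as a block, and 1, Irs1, was then higher at an unadjusted p under 0.05. The 3 with the smallest adjusted p were Ptpn6, a tyrosine phosphatase (1.58-fold), Sh2b1, a JAK2 adaptor (1.24-fold), and Jak2 itself (1.36-fold). Ghr (-0.02 ± 0.11), Stat5b (-0.01 ± 0.12) and Cish (-0.25 ± 0.47) did not pass. In CD-1 mice 1 of 14 was called lower, Irs2 (4.06-fold, adjusted p = 0.0107 by limma), and none higher, where 6.17% of all genes were called lower and 1.84% higher. Ghr (-0.80 ± 0.33), Stat5b (-0.66 ± 0.30) and Cish (0.06 ± 0.48) did not pass there.

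Of the IGF genes 2 of 7 were called in C3H mice, 3 of 8 in hCAR/hPXR mice and none of 5 in CD-1 mice, against 14.7%, 58.1% and 8.01% of all genes called in either direction. In C3H mice Igfals, which holds circulating IGF1 in a stable complex and depends on growth hormone, was 1.96-fold lower (adjusted p = 0.0368 by limma), and Igf2r, which clears IGF2, rose 2.70-fold (adjusted p = 0.00979). No IGF gene was called lower there without a filter on dim probes or with replicate number as a block. When 1 animal was left out 0 to 2 were called lower. Igf2r and Igf1r rose in hCAR/hPXR mice by 0.34 and 0.27, and Igfbp7 was 3.16-fold lower. With slide as a block none of the 8 was called by limma there, and 0 passed at an unadjusted p under 0.05. In CD-1 mice none was called by limma, and 2, Igfals and Igfbp1, were lower at an unadjusted p under 0.05. Igfals differed by 0.30 ± 0.13 in hCAR/hPXR and -0.93 ± 0.31 in CD-1 mice, and Igfbp1, an insulin-repressed binding protein, by 0.29 ± 0.75 in C3H, -0.06 ± 0.41 in hCAR/hPXR and -2.47 ± 0.78 in CD-1 mice, none of which passed. Of 8 liver transcription factors that act beside STAT5, Cebpb rose 1.85-fold in C3H mice (adjusted p = 0.0288 by limma), and none was called by limma in the other strains, where 1 was higher in hCAR/hPXR mice (Nr3c1) and 2 were lower in CD-1 mice (Cebpa and Foxa3) at an unadjusted p under 0.05. In C3H mice none of the 8 was called higher without a filter on dim probes or with replicate number as a block. When 1 animal was left out 0 to 1 were called higher there.

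Of the other male-biased genes of the liver, 5 of 20 were called lower and 1 higher in C3H mice, where 7.3% of all genes were called lower, and the median difference was -1.32, against -0.05 over all genes. In hCAR/hPXR mice 9 of 19 were called lower and 2 higher, where 23.2% of all genes were called lower, with a median of -0.34, against 0.13 over all genes. In CD-1 mice 3 of 18 were called lower, where 6.17% of all genes were, with a median of -0.40, against -0.04 over all genes. Cyp7b1, an oxysterol 7-alpha-hydroxylase, was called lower in all 3 strains, by 2.14, 0.95 and 1.46 on the log2 scale in C3H, hCAR/hPXR and CD-1 animals (adjusted p = 0.0302, 0.0016 and 0.012 by limma). Slco1a1, an organic anion carrier, was 8.35-fold lower in hCAR/hPXR and 3.27-fold lower in CD-1 mice (adjusted p = 0.00148 and 0.0132 by limma), and 4.14-fold lower in C3H mice, where it missed the threshold (adjusted p = 0.0541). None of the 19 was called lower in hCAR/hPXR mice by limma with slide as a block, and 6 were lower at an unadjusted p under 0.05. In C3H mice the count of 5 was 0 without a filter on dim probes, 16 without treated animal 1, and 0 or 1 without any 1 of the other 5 animals.

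Gna14, a G-protein subunit on the male-biased list, went the other way. It rose 5.78-fold in C3H mice (adjusted p = 0.00256 by limma) and 1.82-fold in hCAR/hPXR mice (adjusted p = 0.000909). In CD-1 mice its difference of 2.38 ± 0.70 did not pass, and it was well above background on 1 of the 4 control arrays. Egfr, the epidermal growth factor receptor, was 5.45-fold lower in C3H mice (adjusted p = 0.0357 by limma), with differences of -0.12 ± 0.20 in hCAR/hPXR and -0.95 ± 0.29 in CD-1 mice that did not pass. Cspg5, a proteoglycan, was 3.22-fold lower in hCAR/hPXR mice and 8.10-fold lower in C3H mice (adjusted p = 0.00011 and 0.0415 by limma). Obp2a, an odorant-binding protein, was called lower in all 3 strains, by 6.12, 2.07 and 1.68 on the log2 scale in C3H, hCAR/hPXR and CD-1 animals (adjusted p = 0.0477, 0.0016 and 0.036 by limma). It was well above background on 1 of the 3 treated arrays in C3H and on 1 of the 4 in CD-1 mice, so the size of its fall is uncertain in both.

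Female-biased genes known to respond to CAR or PXR activators rose in all 3 strains: 6 of 8 tested in C3H, 8 of 9 in hCAR/hPXR and 6 of 6 in CD-1 mice, and none fell. Over the array 7.38%, 34.8% and 1.84% of all genes were called higher in these strains. Genes silent in controls entered this list only through their phenobarbital arrays, so its shares depend on the filter. When a gene had to pass the filter in controls and treated animals alike, 4, 4 and 2 were called higher in C3H, hCAR/hPXR and CD-1 mice. Without a filter on dim probes the counts were 4, 8 and 6. Cyp2b9, a P450 gene of the Cyp2b cluster, was 61.8-fold higher in C3H, 29.9-fold higher in hCAR/hPXR and 19.6-fold higher in CD-1 mice (adjusted p = 0.00134, 1.4e-09 and 6.36e-05 by limma). Cyp2a4, a steroid 15-alpha-hydroxylase, was 3.94-fold, 3.23-fold and 6.05-fold higher in C3H, hCAR/hPXR and CD-1 animals (adjusted p = 0.00122, 1.64e-07 and 0.00497 by limma). Of the 9 genes, 7 were also called higher in hCAR/hPXR mice with slide as a block. Sult2a2 and Sult2a1, hydroxysteroid sulfotransferases, were well above background on no control array of hCAR/hPXR mice and were at least 291-fold and 125-fold higher with phenobarbital (adjusted p = 1.81e-09 and 6.3e-09 by limma). A bound sets each control array at no less than its lowest signal well above background. Sult2a2 was at least 15.4-fold higher in C3H mice (adjusted p = 0.00521 by limma), and in CD-1 mice Sult3a1 was at least 4.53-fold and Cyp2b13, with 2 of 4 control arrays well above background, 9.05-fold higher (adjusted p = 0.000294 and 0.000252).

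Female-biased genes without a known CAR response were called in both directions. In C3H mice 5 of 12 rose and 1 fell, where 7.38% of all genes were called higher and 7.3% lower. Without a filter on dim probes 1 was called higher and none lower, and the count of 5 became 7 without treated animal 1 and 1 or 2 without any 1 of the other 5 animals. The smallest adjusted p-values were those of Tox, a nuclear factor (at least 7.14-fold higher, adjusted p = 0.00907 by limma), Prlr, the prolactin receptor (2.29-fold lower, adjusted p = 0.013), and Atp6v0d2, a proton pump subunit (7.24-fold higher, adjusted p = 0.0221). In hCAR/hPXR mice 4 of 12 rose, Prlr among them (1.61-fold, adjusted p = 0.0291 by limma), and 3 fell, where 34.8% of all genes were called higher and 23.2% lower. None of the 12 was called by limma with slide as a block, and 1, Cyp17a1, was then lower at an unadjusted p under 0.05. Atp6v0d2 rose 6.46-fold there, and Ntrk2, a neurotrophin receptor, was 1.79-fold lower (adjusted p = 0.000817 and 0.00137 by limma). In CD-1 mice none of 9 was called higher by limma and 1, Rtn4, a reticulon of the endoplasmic reticulum, was 2.27-fold lower (adjusted p = 0.0397 by limma).

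**Figure D4:**
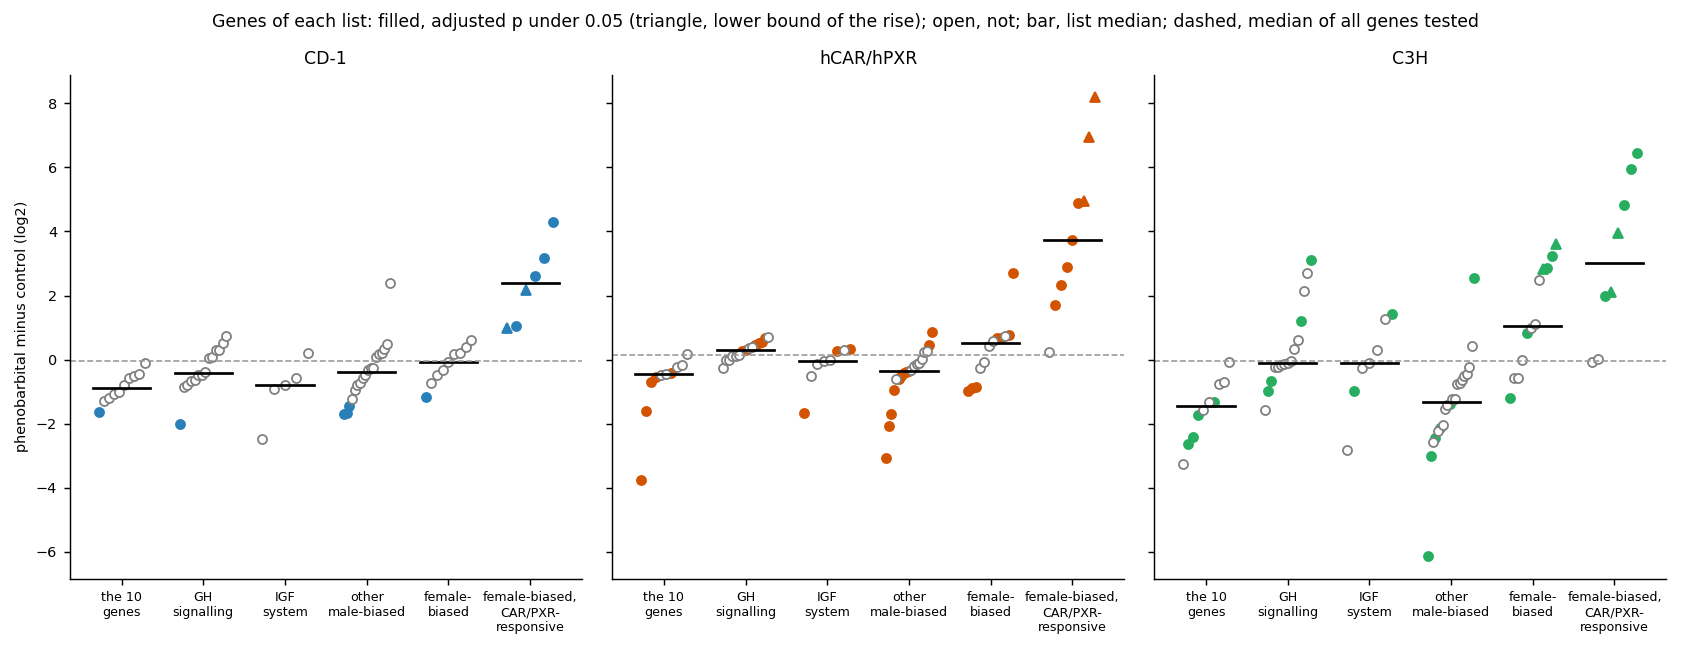
Phenobarbital minus control (log2, vertical axis) for the genes of 6 lists in the CD-1, hCAR/hPXR and C3H strains; filled symbols have an adjusted p under 0.05, triangles are lower bounds for genes not well above background in controls, bars are list medians and the dashed line is the median of all genes tested. The median of the other male-biased genes was -1.32 in C3H mice, and none of the CAR- or PXR-responsive female-biased genes was called lower in any of the 3 strains.

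Markers of other tissue states moved in the same comparisons. In C3H mice all 5 tested genes of the tumour and fetal liver list were called higher, against 7.38% of all genes. The summed signal of the list was 162 to 294 with phenobarbital and 1.44 to 7.09 in controls. In hCAR/hPXR mice 3 of 4 tested genes were called higher, against 34.8% of all genes. The sums there were 32.4 to 88.0 with phenobarbital and 1.54 to 10.5 in controls. In CD-1 mice 1 of 2 was called higher, against 1.84% of all genes, with sums of 2.96 to 5.44 and 1.48 to 1.86. A gene silent in controls could be tested only through its phenobarbital arrays, so these shares can depend on the filter. Of the 9 tested hepatocyte markers, 4 were lower in C3H mice (Fgb, Alb, Apoa1 and Ttr, by 0.56 to 0.99 on the log2 scale) and 2 in CD-1 mice (Alb by 1.97 and Apoa1 by 1.32). In these strains 7.3% and 6.17% of all genes were called lower. In hCAR/hPXR mice none was called lower and 2 were called higher, where 23.2% of all genes were called lower and 34.8% higher. Alb differed by -0.04 ± 0.12 there. The neutrophil markers had summed signals of 33.7 to 49.1 with phenobarbital and 3.53 to 5.06 in controls in CD-1 mice, and the sums overlapped in the other strains. Of the 5 tested in CD-1 mice 1 was called higher, against 1.84% of all genes. In hCAR/hPXR mice 4 of 7 Kupffer cell markers were called higher, and 4 of 8 endothelial markers were called higher and 1 lower, where 34.8% of all genes were called higher. In C3H mice the endothelial sums were 86.8 to 122 with phenobarbital and 140 to 153 in controls. Of 8 markers 1 was called higher and 1 lower, where 7.38% of all genes were called higher and 7.3% lower. The red cell sums were 202 to 248 with phenobarbital and 271 to 364 in controls, and the differences of its 5 markers, between -0.49 and 0.011, did not pass. Lymphocyte marker sums were 18.7 to 28.9 with phenobarbital and 37.7 to 56.0 in controls in hCAR/hPXR mice, and 20.1 to 41.5 and 53.5 to 72.6 in C3H mice, and overlapped in CD-1 mice. The part of these markers in the differences of the 10 genes was not tested.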

How the data were processed

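Liver RNA of 28 animals was measured on 1-colour Agilent arrays. Per the file headers, Feature Extraction 10.7.3.1 made the intensity of each of 62976 spots and subtracted its background. The deposited value table holds the authors' log2 processed signal less a constant per array; its column medians ran from -3.86 to -1.3, and which probes set the constant is not given in the sources used here. Its scale and direction were checked against the scanner intensities. It served as an alternative.

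The log2 processed signal was shifted by each array's 75th percentile over 55681 probes, without control spots and without 109 to 430 outlier spots per array; no spot was saturated. Between 42.6% and 70.6% of probes were well above background per array. Probes were named through RefSeq accessions (GRCm38.p6; 26582 probes), and the probe with the highest mean stood for a gene. A gene was tested if it was well above background on every array of 1 or both groups and had no missing value. Tests used limma 3.58.1 in R 4.3.3 with Benjamini-Hochberg adjustment over all tested genes. Nothing in the labels says how animals were housed or RNA was extracted by group, so p-values measure the spread between these animals. On simulated data the CD-1, hCAR/hPXR and C3H fits called 57%, 97% and 78% of genes changed by 2 on the log2 scale, and 7%, 92% and 36% of those changed by 1. The simulation drew independent noise for each gene, changed 100 genes by each amount and held no slide effect. It therefore does not give the recovery where slide goes with treatment, as in CD-1 and hCAR/hPXR mice.

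The 10 genes and all lists were chosen with earlier results of these data known. All 10 are named, and per list and comparison up to 3 called genes with the smallest adjusted p, besides Ghr, Stat5b, Cish, Igfals, Igfbp1, Slco1a1 and Cyp7b1. A gene that this rule names is not reported here. Other genes named were chosen after their values were seen. Alternatives were quantile normalization, normexp on median signals, the authors' table, other filters, the mean of probes, 1 fit of all arrays, slide or replicate number as a block, and leaving out each animal.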

Additional observations from a re-analysis of the deposited data

Results flagged for a closer look

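In hCAR/hPXR controls, animal 1 lay far below the other 6 animals for 4 of the 10 genes. Its levels were 2.63 for Hsd3b5, 3.54 for Elovl3, 4.505 for Susd4 and 4.70 for Cyp4a12a, each farther from its nearest neighbour than Dixon's 95% limit allows. Among hCAR/hPXR animals given phenobarbital, animal 4 lay above the others by the same measure for Nudt7, at 7.23. These were 5 of 40 combinations of gene and group, and 4 of the 5 came from 1 animal. A rate of about 1 in 20 holds for independent tests. These genes were read in the same animals and several varied together, so the 5 cannot be set against that rate.

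The phenobarbital effect on Igf1 differed between strains by the interaction test, by -1.29 for C3H minus CD-1 and by -1.55 for C3H minus hCAR/hPXR. The Igf1 call for C3H minus CD-1 was lost without treated C3H animal 2 or 3. The effect on Susd4 differed by -2.70 for C3H minus hCAR/hPXR. Dose, time, pretreatment, age and scan cannot be told apart from strain in these differences.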

How the results depend on the processing

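Of 250 values of the phenobarbital differences under alternatives other than leaving out an animal, 246 had the sign of the main value. The exceptions were Cyp4a12a in CD-1 (0.10), Bcl6 in hCAR/hPXR (-0.0019) and Cyp2d9 in C3H mice (0.011) under quantile normalization, and Cyp2d9 in C3H mice (0.0097) under normexp. Most of the 250 values could not turn sign. The other filters, the 1 fit of all arrays and the replicate block repeat the main difference and change only its error and adjustment. The authors' table nearly repeats the main scale, and the mean of probes changes only genes with more than 1 probe. The count of called genes in CD-1 mice, 1 in the main analysis, was 3 under normexp, 0 without a filter, and 2 with the strict filter, with the mean of probes and with all 28 arrays in 1 fit. In hCAR/hPXR mice, with 5 called, it was 3 with all arrays in 1 fit, 0 with slide as a block, 7 under quantile normalization and under normexp, 6 with the mean of probes and 4 without a filter. In C3H mice, with 4 called, it was 1 without a filter, 2 with the replicate block, 3 under quantile normalization, under normexp and with the mean of probes, and 5 with the strict filter and with all arrays in 1 fit.

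For the differences between strains, the count for C3H minus hCAR/hPXR was 1 under quantile normalization, under normexp and without a filter, and that for C3H minus CD-1 was 0 with the mean of probes. For control levels, the counts for hCAR/hPXR minus CD-1, C3H minus CD-1 and C3H minus hCAR/hPXR were 4, 4 and 1 under quantile normalization. Under normexp they were 4, 5 and 1. These counts are in either direction, and Igf1 was called lower for hCAR/hPXR minus CD-1 in both settings. Over the array 18650 of 22366, 17488 of 21604 and 5226 of 19461 genes were called under quantile normalization. Under normexp 18579, 17277 and 6514 of the same totals were called. Signs of control differences turned under quantile normalization for Cyp2d9 (-0.26), Cyp4a12a (-0.46) and Igf1 (-0.48) in hCAR/hPXR minus CD-1, for Cyp4a12a (-0.23) and Igf1 (-0.13) in C3H minus CD-1, and for Bcl6 (-0.26), Elovl3 (-0.20), Nudt7 (-0.026) and Serpina3k (-0.028) in C3H minus hCAR/hPXR. Under normexp the same genes gave -0.15, -0.43 and -0.50, then -0.22 and -0.23, then -0.28, -0.097, -0.026 and -0.070. With the mean of probes Socs2 gave 0.00048 for hCAR/hPXR minus CD-1. The cause of these changes was not tested.

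Leaving out 1 animal gave 0 to 1 called genes in CD-1, 4 to 6 in hCAR/hPXR and 1 to 8 in C3H mice. The counts for the differences between strains were 0 to 1, 0 to 3 and 1 to 4, and those for control levels 8 to 9, 10 to 10 and 4 to 6, in the order above. Signs turned for Cyp4a12a in CD-1 (-0.33 to 0.0501), Bcl6 in hCAR/hPXR (-0.0202 to 0.51) and Cyp2d9 in C3H mice (-0.22 to 0.016), and for the control differences of Bcl6 (-0.0581 to 0.33) and Elovl3 (-0.0734 to 0.54) in C3H minus hCAR/hPXR. Over the whole array the called genes, 1897 in CD-1, 11548 in hCAR/hPXR and 2681 in C3H mice, became 3793 in CD-1 mice under normexp, 6153 in CD-1 mice with all arrays in 1 fit, 612 in C3H mice without a filter and 438 in hCAR/hPXR mice with slide as a block.

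Same-numbered animals share only a number: their deviations correlated between -0.45 and 0.27, and not every animal correlated best with its own number. With the replicate block 1, 5 and 2 of the 10 genes were called in the CD-1, hCAR/hPXR and C3H comparisons, and 1180, 11320 and 1542 genes over the array. Genes near background are measured less precisely.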
